A study of Mus musculus with 9 samples.

Results

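The mitochondrial ribosomal proteins make up the ribosome that works inside mitochondria. They were followed as 78 genes, of 55011 in the count table: every gene whose symbol is Mrpl or Mrps followed by a digit and whose deposited biotype is protein coding. A further 6 symbols of this form belong to processed pseudogenes and were left out. In the present view of the mammalian particle, 51 of the 78 encode proteins of the large subunit, Mrps18a and Mrps30 among them despite their names, and 26 encode proteins of the small subunit. The remaining gene, Mrps36, carries the family name, but its product is known as a component of the 2-oxoglutarate dehydrogenase complex. The 78 genes lie on 17 chromosomes, with 11 of them on chromosome 11.

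Spleen CD8 T cells of wild-type mice, naive at the start, were stimulated in culture for 6 h on plates coated with antibodies to CD3 and CD28, and their RNA was sequenced. The study compared 3 groups, each of 3 libraries (n = 3): stimulated cells with no added compound (control), cells that received 20 mM D-2HG together with the stimulus, and cells that received 20 mM L-2HG in the same way. Both compounds are 2-hydroxyglutarate, and the D and L forms are enantiomers. All 9 libraries share genotype, stimulus and time, no unstimulated cells were analysed here, and the labels do not say whether replicates are separate mice or cultures, so p-values measure only the spread between these libraries, which may be technical.

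Mitochondria keep a small genome of their own, whose messenger RNAs encode core subunits of the respiratory chain and of ATP synthase. These messages are read by a dedicated ribosome of bacterial descent: its ribosomal RNAs are made inside the organelle, while all of its proteins are encoded in the nucleus, made in the cytosol and imported. Some of these proteins have counterparts in bacterial ribosomes and others are found in mitochondria only. Stimulated T cells are known to enlarge their mitochondrial mass as they prepare to divide.

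Library size and background differed among the 9 libraries and touch every result that follows. Total counts ran from 562627 in L-2HG replicate 2 to 5731885 in control replicate 3, and the members received between 2405 and 53290 of them. Gm10800 and Gm10801, predicted genes made of satellite repeat sequence, took 0.910% to 5.35% of the counts in control libraries, 3.79% to 17.0% with D-2HG and 6.71% to 24.4% with L-2HG. Control replicate 2 had the highest satellite share of its group, 5.35% (exact 95% binomial interval 5.32% to 5.38%, counting error only), and in the members it stood nearer to the treated libraries than to the other controls. It lay below both other controls in 75 of the 77 members tested, against 41.6% of all 10235 genes tested, and its median difference from their mean was -0.63 on the log2 scale over the members and 0.01 over all tested genes. The summed level of 9 CD8 T cell markers was 3863 to 6314 CPM (counts over the library total scaled by TMM) in controls, 3414 to 3887 CPM with D-2HG and 3177 to 4444 CPM with L-2HG. Of these 9, 4 fell and 1 rose with D-2HG (44.4% and 11.1%), against 10.5% and 11.8% of all tested genes. With L-2HG 1 fell (11.1%), against 8.30% of all tested genes. Of the B cell markers, Ighm, the immunoglobulin mu chain, was at 310, 164 and 244 CPM in controls, 127, 127 and 127 CPM with D-2HG and 124, 140 and 188 CPM with L-2HG, and fell with both compounds (-0.92 and -0.67, edgeR adjusted p = 0.0114 and 0.049). The defining markers Cd79a and Ms4a1 were at most 2.42 CPM in any library, and the part of these cells in the results was not tested. Markers of CD4 T cells, natural killer cells, myeloid cells, dendritic cells and erythroid cells each summed to at most 22.8 CPM, with the dendritic list at 5.21 to 8.72 CPM in controls, 10.7 to 19.9 CPM with D-2HG and 14.6 to 22.8 CPM with L-2HG. Zbtb46, the dendritic marker that was tested, rose with L-2HG (1.10, edgeR adjusted p = 0.0382), while its estimate with D-2HG was 0.71 (edgeR adjusted p = 0.122), and Itgax, Flt3 and Siglech were at most 4.97 CPM in any library. The part of these cells in the results was not tested.

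Of the 78 members, 77 passed the filter on low counts, and a tested member had a median of 26 counts in the smallest library and of 612 in the largest. In the control libraries the level per length had a median of 41.3 CPM per kb of exon over the 78 members, and it spanned a wide range. Mrps6, a small-subunit protein with a bacterial counterpart, was the highest at 269 ± 52.6 CPM per kb (SD, n = 3). Mrpl20 followed at 201 ± 50.1 CPM per kb, and Mrpl12, which forms the stalk that recruits translation factors to the large subunit, at 194 ± 65.1 CPM per kb. The SDs are between libraries that these genes share, so they do not measure differences between genes, and the order was not tested. At the low end of the tested members stood Mrpl23, a protein next to the exit of the peptide tunnel, at 5.46 ± 1.09 CPM per kb, Mrpl48 at 6.31 ± 2.19 CPM per kb and Mrps34 at 11.2 ± 5.24 CPM per kb. Length here is that of all annotated exons of a gene merged, 4883 bases for Mrpl23 and 8152 bases for Mrpl48. The rank therefore depends on the annotation as well as on the counts. Mrpl53 alone did not pass the filter. It had 55 counts over all 9 libraries and stood at 2.36 ± 0.549, 1.91 ± 1.5 and 1.94 ± 0.459 CPM in control, D-2HG and L-2HG cells, and it was not tested.

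**Figure D1:**
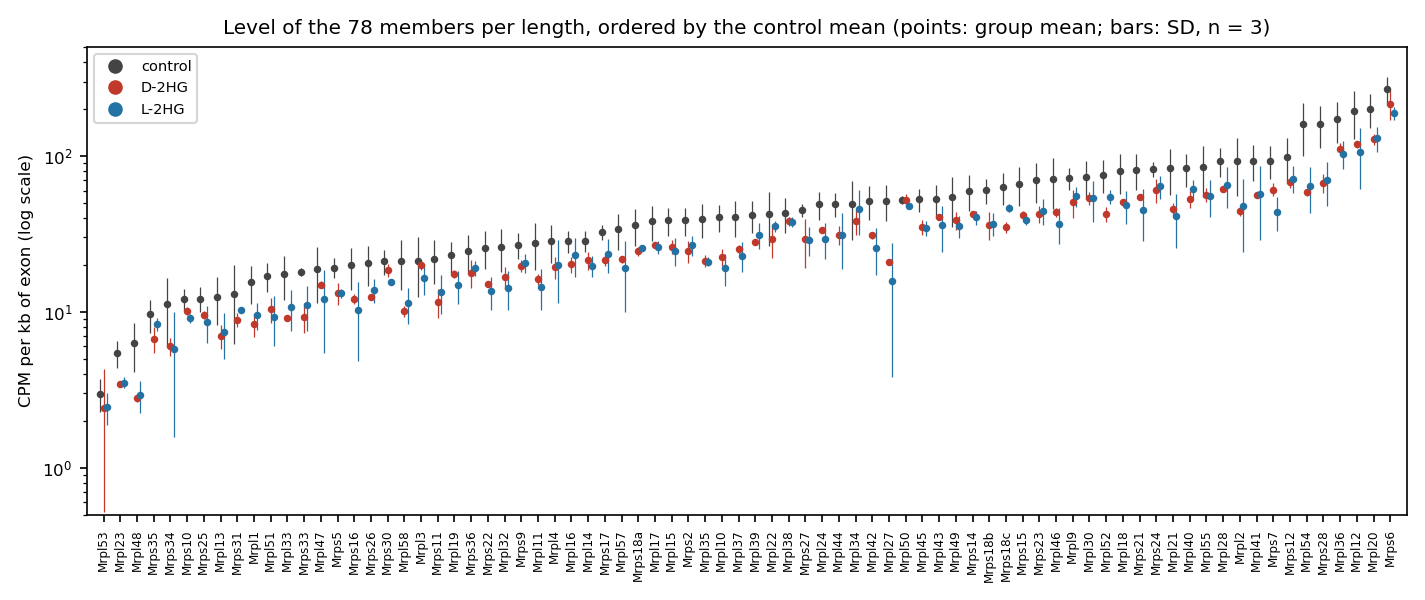
Level of each of the 78 members in CPM per kb of exon (log axis), ordered by the control mean; points are group means and bars are SDs (n = 3), cut at the axis where they reach below it. The control means run from 2.99 CPM per kb for Mrpl53 to 269 CPM per kb for Mrps6, and the treated means lie below the control mean for most members.

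With D-2HG the messenger RNAs of the mitochondrial ribosome were lower as a family, by about the same factor in both subunits. The mean log2 CPM of the 77 tested members was 6.96, 6.23 and 6.73 in control replicates 1 to 3, and 6.06, 6.08 and 5.95 with D-2HG. All D-2HG libraries lay below all controls, but by a small margin for control replicate 2. Of the 77 members, 35 fell and 0 rose at an adjusted p under 0.05 (edgeR's quasi-likelihood test, Benjamini-Hochberg over all 10235 genes), against 10.5% of all tested genes lower and 11.8% higher. At an unadjusted p under 0.05, 60 members were lower and none was higher, against 3960 of the 10235 tested genes in either direction. DESeq2 and limma-voom called 48 and 70 members lower and 0 higher, and their shares over all genes are not given here. The estimate was below 0 for all 77 members, compared with 48.3% of all tested genes, and its median was -0.63 on the log2 scale (64.6% of the control level), compared with 0.04 for all tested genes. In 50 of the 77 members every D-2HG library was below every control, against 19.3% of all tested genes, and in 0 members every D-2HG library was above every control, against 20.7%. Without control replicate 2, every D-2HG library was below the remaining controls in 75 of 77 members, against 32.4% of all tested genes. CPM is a share of the library, and in bulk RNA fewer cells of a type and less RNA per cell cannot be told apart.

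The number of members called moved with single libraries, while the sign of the family median did not. The number called was 2 without control replicate 1, 68 without control replicate 2 and 6 without control replicate 3. It was 8, 13 and 7 without D-2HG replicate 1, 2 and 3, and 23 without L-2HG replicate 1, which enters through the shared estimate of spread. Across the 9 fits that each left out 1 library, the median of the members stayed between -0.83 and -0.48. The estimates of Mrpl3 (-0.34 to 0.28) and Mrpl50 (-0.07 to 0.06), neither of them called, changed sign in these fits. With the log2 satellite share as a covariate 0 members passed (8 at an unadjusted p under 0.05) and the median was -0.25, whereas without the library of highest satellite share in each group, an alternative chosen after seeing the data, 67 passed. The part of the satellite share in the result was not tested beyond these values.

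**Figure D2:**
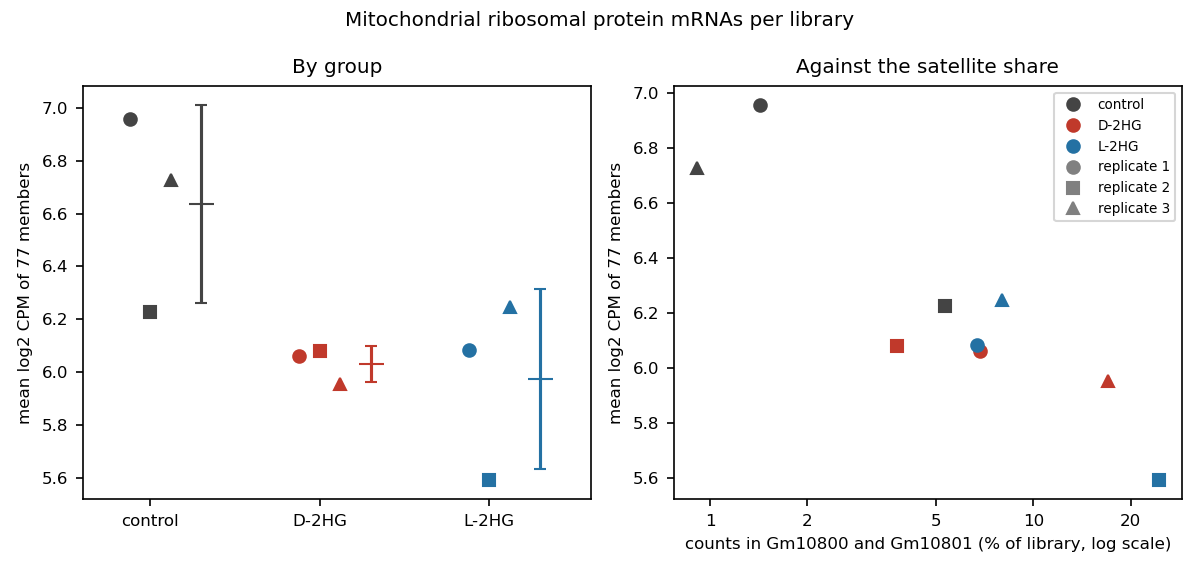
Mean log2 CPM of the 77 tested members in each library, by group (left, with group mean and SD, n = 3) and against the share of counts in the satellite genes Gm10800 and Gm10801 on a log axis (right). Controls 1 and 3, at 6.96 and 6.73, stand above the other 7 libraries, and control 2, at 6.23, is next to L-2HG replicate 3, at 6.25.

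Among large-subunit proteins, 23 of 50 tested fell with D-2HG, and the median over the 50 was -0.64 on the log2 scale. Mrpl54, a mitochondria-specific protein of the large subunit (chromosome 10, 81264713 to 81266934, minus strand, mm10), had the lowest adjusted p of the family. It stood at 177, 79.0 and 138 CPM in control replicates 1 to 3 and at 50.9, 45.9 and 48.3 CPM with D-2HG. The groups did not overlap, and the D-2HG libraries were close to each other. The fitted change was -1.45 ± 0.26 (log2, SE), with an edgeR adjusted p of 0.00234. Mrpl27 (chromosome 11, 94653767 to 94660089, plus strand), whose bacterial counterpart reaches into the catalytic centre where peptide bonds form, went from 65.4, 39.3 and 48.0 CPM to 20.3, 20.6 and 20.8 CPM. That is a change of -1.32 ± 0.31 on the log2 scale (edgeR adjusted p = 0.0093). Its exons overlap those of Eme1 on the other strand, and the library kit does not mark strand, so reads of the pair cannot be told apart where they overlap.

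Other large-subunit genes followed the same course. Mrpl48, mitochondria-specific, changed by -1.18 (log2) at an edgeR adjusted p of 0.00644. Its levels were 68.7, 33 and 52.7 CPM in controls and 22.0, 24.4 and 22.1 CPM with D-2HG, again without overlap. Mrpl58, known in human cells as ICT1, is a peptidyl-tRNA hydrolase that frees stalled ribosomes and is also built into the large subunit. It changed by -1.09 (log2) at an edgeR adjusted p of 0.00921, from 95, 44.6 and 73.5 CPM to 32.0, 32.0 and 37.0 CPM. Mrpl35, which has a bacterial counterpart, was at 202, 123 and 169 CPM in controls and at 79.8, 94.5 and 90.8 CPM with D-2HG, a change of -0.90 ± 0.21 (edgeR adjusted p = 0.00816). Mrpl48, Mrpl58, Mrpl35 and Mrpl27 kept the call in 8 of the 9 fits that left out 1 library and lost it without control replicate 1, with adjusted p values of 0.0503 to 0.0658.

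Of the small-subunit proteins, 12 of 26 tested fell with D-2HG, and the median over the 26 was -0.61 on the log2 scale. Mrps28 (chromosome 3, 8802146 to 8923918, minus strand), counted as the counterpart of bacterial ribosomal protein S1, was at 157, 84.3 and 136 CPM in controls and at 56.8, 56.9 and 44.2 CPM with D-2HG. All D-2HG values were below the lowest control, and the change was -1.26 ± 0.25 on the log2 scale (edgeR adjusted p = 0.00388). Mrpl54 and Mrps28 were the members that passed in all 9 fits that left out 1 library, with adjusted p values of at most 0.019 and 0.0299. The difference between the mean log2 CPM of large-subunit and small-subunit members was 0.10 to 0.18 in control libraries, 0.12 to 0.21 with D-2HG and 0.03 to 0.16 with L-2HG, so the ranges overlapped. Members with a bacterial counterpart (20 of 46 lower, median -0.61) and mitochondria-specific members (15 of 30 lower, median -0.68) were also close.

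**Figure D3:**
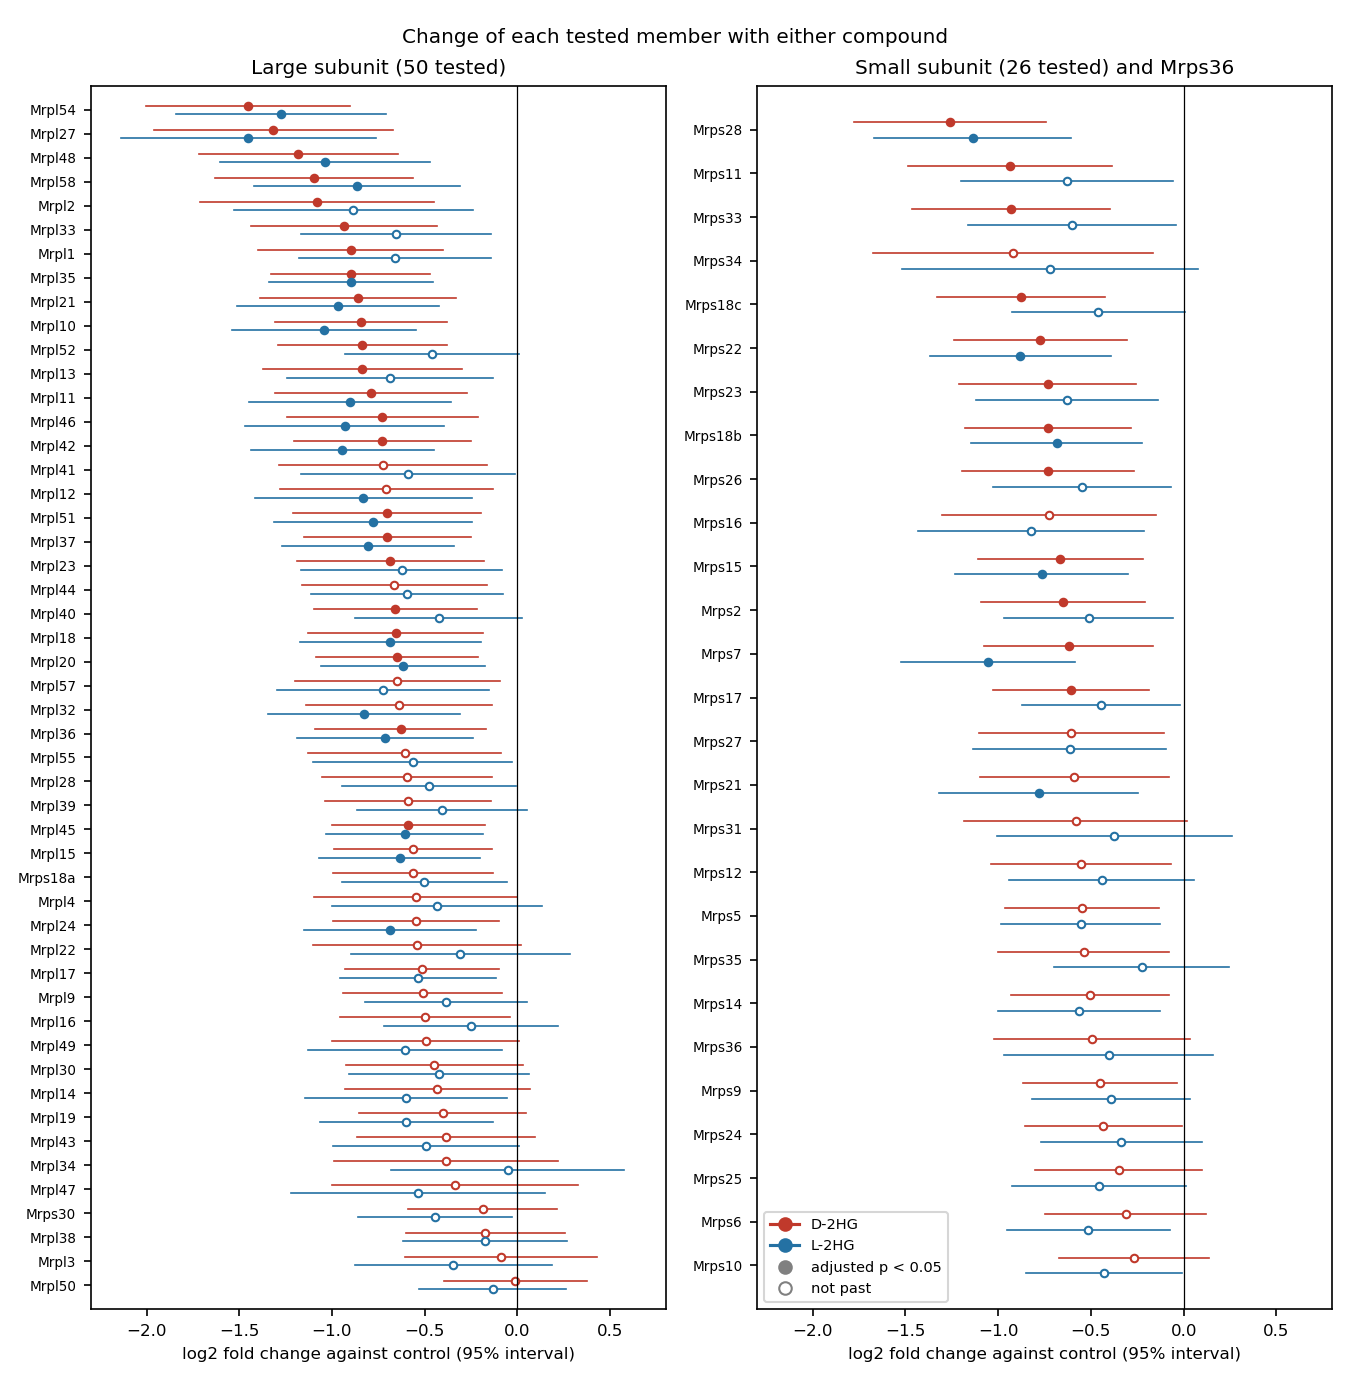
Log2 fold change against control of each tested member with D-2HG and with L-2HG, with 95% intervals from the fit across all genes, large subunit at left and small subunit with Mrps36 at right; filled points passed the adjusted p threshold. All points lie below 0, from -1.45 for Mrpl54 with D-2HG to -0.01 for Mrpl50 with D-2HG.

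With L-2HG the picture was much the same, measured against the same control libraries, so the comparisons with control are not independent. The mean log2 CPM of the 77 members was 6.08, 5.59 and 6.25 in L-2HG replicates 1 to 3. L-2HG replicate 3 lay just above control replicate 2, and L-2HG replicate 2, the smallest library, was the lowest of all. Of the 77 members, 26 fell and 0 rose (edgeR, adjusted p under 0.05), against 8.30% of all tested genes lower and 9.41% higher. At an unadjusted p under 0.05, 54 members were lower, against 3771 of the 10235 tested genes in either direction. DESeq2 and limma-voom called 35 and 66 members lower and 0 higher, and their shares over all genes are not given here. The estimate was below 0 for all 77 members and for 47.6% of all tested genes, with a median of -0.60 (65.9% of the control level) over the members and of 0.05 over all genes. Every L-2HG library was below every control in 30 members, against 14.8% of all tested genes, and in 75 members without control replicate 2, against 28.9%. In 0 members was every L-2HG library above every control, against 16.4% of all tested genes. By subunit, 20 of 50 large-subunit members fell (median -0.61) and 6 of 26 small-subunit members fell (median -0.56).

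Again the count depended on single libraries: it was 1 without control replicate 1, 67 without control replicate 2 and 0 without control replicate 3 (42 at an unadjusted p under 0.05). It was 3 and 8 without L-2HG replicate 1 and 2, and 16 without either D-2HG replicate 1 or 2. The median stayed between -0.78 and -0.46 in these 9 fits. In them the estimates of Mrpl34 (-0.36 to 0.22), Mrps31 (-0.70 to 0.04) and Mrpl3 (-0.62 to 0.006) changed sign. None of these members was called with all 9 libraries. With the satellite share as a covariate the median was -0.17 and 0 members passed (5 at an unadjusted p under 0.05). Without the library of highest satellite share in each group, 69 members passed.

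Mrps7 (chromosome 11, 115603925 to 115608036, plus strand), a protein of the head of the small subunit, shared the lowest adjusted p with L-2HG. It stood at 229, 141 and 209 CPM in controls and at 99.8, 65.1 and 107 CPM with L-2HG. No L-2HG value reached the lowest control, and the change was -1.05 ± 0.23 on the log2 scale (edgeR adjusted p = 0.0104). It lost the call in 1 of the 9 fits, without control replicate 3 (adjusted p = 0.0673). Its exons overlap those of Gga3 and Mif4gd on the other strand. With D-2HG it was at 119, 120 and 140 CPM, a change of -0.62 on the log2 scale (edgeR adjusted p = 0.0464), a call lost in 6 of the 9 fits.

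Mrpl54 was at 46.8, 39.5 and 72.3 CPM with L-2HG (-1.28 ± 0.27 on the log2 scale, edgeR adjusted p = 0.0104). Mrps28 was at 60.3, 35.5 and 68.5 CPM (-1.14 ± 0.26, edgeR adjusted p = 0.0127). Both stayed below all controls, and each lost the call without control replicate 1 or 3, and Mrpl54 also without L-2HG replicate 1. Mrpl10, the protein that anchors the Mrpl12 stalk, was at 82.6, 56.2 and 68.2 CPM in controls and at 31.4, 25.7 and 40.4 CPM with L-2HG, a change of -1.04 ± 0.24 (edgeR adjusted p = 0.0135). Its call was lost without control replicate 1 or 3 or L-2HG replicate 1. Mrpl35 was at 91.8, 80.9 and 90.4 CPM (-0.90 ± 0.21, edgeR adjusted p = 0.0147) and lost the call without the same 3 libraries. Mrpl27 was at 22.3, 1.97 and 22.4 CPM, where the value of 1.97 CPM rests on 1 count in L-2HG replicate 2. Its change was -1.45 ± 0.33 (edgeR adjusted p = 0.0135), and without control replicate 1 or 3 the call was lost.

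Since the controls are shared and the difference between compounds is tested separately, passing with one compound and missing the threshold with the other is no sign of a difference.

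**Figure D4:**
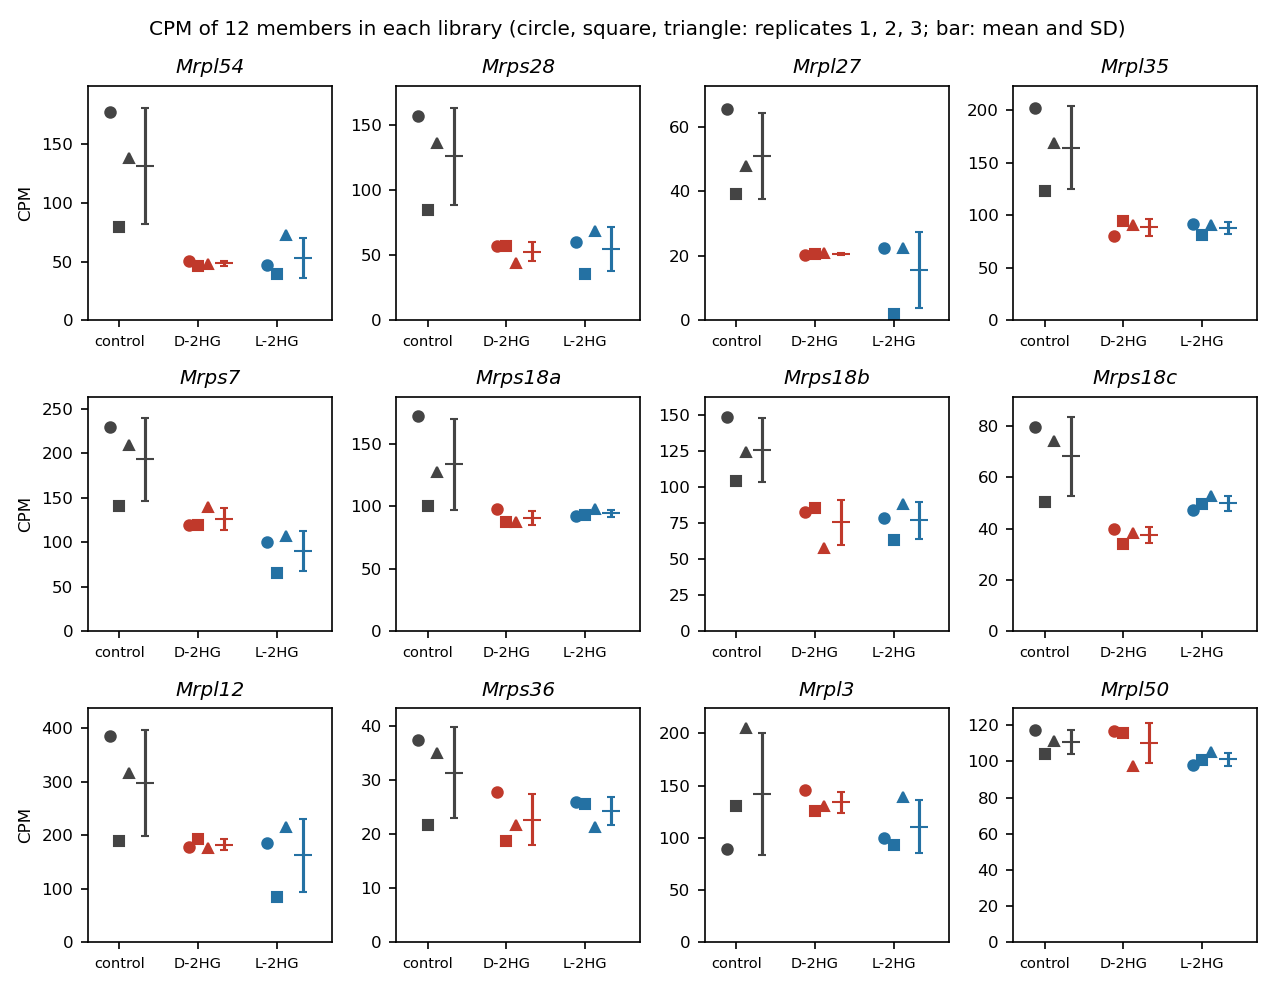
CPM of 12 members in each of the 9 libraries, with the mean and SD of each group (n = 3) to the right of its points; circles, squares and triangles are replicates 1, 2 and 3. Mrpl54 and Mrps28 show no overlap between controls and either compound, while Mrpl3 and Mrpl50 overlap throughout, and control replicate 2 (square) is the lowest control in 11 of the 12 panels.

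The mirror-image compounds, at the same dose and time, were compared directly with each other. No member passed between D-2HG and L-2HG: 0 of 77 in edgeR, against 0.303% of all tested genes. At an unadjusted p under 0.05 there were also 0 members in edgeR, against 713 of the 10235 tested genes. In DESeq2 and in limma-voom 0 members passed (0 and 3 at an unadjusted p under 0.05). The estimates ran from -0.41 to 0.43 on the log2 scale with a median of -0.02, and 40 of 77 were below 0, against 49.1% of all tested genes. A p above the threshold does not show equal levels, and the intervals set the limit: for 76 of 77 members the 95% interval lay within 1 log2 unit of 0, and for Mrps34 it ran from -1.04 to 0.64. Mrps7 had the highest estimate, 0.43 (95% interval -0.04 to 0.91, edgeR adjusted p = 0.764). Mrps18c had the lowest, -0.41 (95% interval -0.89 to 0.06, edgeR adjusted p = 0.772), with 39.9, 34.0 and 38.4 CPM under D-2HG and 47.2, 49.4 and 52.8 CPM under L-2HG.

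The 3 paralogues of bacterial protein S18 occupy different places in the particle: Mrps18c sits at the bacterial site, Mrps18b elsewhere in the small subunit and Mrps18a in the large subunit. Mrps18b was at 148, 104 and 124 CPM in controls, at 82.9, 85.6 and 57.8 CPM with D-2HG and at 78.6, 63.2 and 88.5 CPM with L-2HG. It fell with D-2HG (-0.73, edgeR adjusted p = 0.0234) and with L-2HG (-0.69, edgeR adjusted p = 0.0405), but the calls were lost in 4 and 6 of the 9 fits that left out 1 library, in both cases without control replicate 1 or 3. Mrps18c was at 79.6, 50.4 and 74.0 CPM in controls and fell with D-2HG (-0.87, edgeR adjusted p = 0.012), a call lost without control replicate 1 or 3 or D-2HG replicate 2. Its estimate with L-2HG was -0.46 (edgeR adjusted p = 0.141). Mrps18a was at 172, 100 and 127 CPM in controls, 97.4, 87.2 and 87.1 CPM with D-2HG and 92.5, 92.8 and 97.5 CPM with L-2HG. Its estimates of -0.56 and -0.50 did not pass (edgeR adjusted p = 0.0549 and 0.0956), although neither treated group overlapped the controls. Without control replicate 2 all estimates of the 3 paralogues passed with both compounds, Mrps18c with L-2HG at an adjusted p of 0.0168.

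Further members with particular roles gave weaker or mixed results. Mrpl12 was at 386, 189 and 317 CPM in controls, 179, 193 and 176 CPM with D-2HG and 186, 84.9 and 216 CPM with L-2HG, so both treated groups reached past control replicate 2. Its estimate was -0.71 with D-2HG (edgeR adjusted p = 0.068) and -0.83 with L-2HG (edgeR adjusted p = 0.047), a call lost in 7 of the 9 fits that left out 1 library. Mrps12, which lines the decoding centre, was at 130, 66.9 and 110 CPM in controls, and its estimates were -0.55 and -0.44 (edgeR adjusted p = 0.087 and 0.183). Mrps36, the member outside the mitochondrial ribosome, was at 37.4, 21.8 and 35.1 CPM in controls, 27.9, 18.7 and 21.7 CPM with D-2HG and 26, 25.7 and 21.4 CPM with L-2HG. The groups overlapped and neither estimate passed (-0.50 and -0.40, edgeR adjusted p = 0.153 and 0.28).

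Mrps6, the member with the highest level per length, was at 489, 329 and 419 CPM in controls and at 395, 349 and 252 CPM with D-2HG, where the ranges overlapped. With L-2HG it was at 278, 267 and 320 CPM, below every control. Its estimates of -0.31 and -0.51 did not pass (edgeR adjusted p = 0.27 and 0.0858). Mrps6 shares exon bases on the same strand with Slc5a3, a sodium and myo-inositol transporter gene whose own estimates were 0.55 and 0.46 (edgeR adjusted p = 0.18 and 0.272), and how the authors' counting divided such reads is not given in the sources used here. In all, 33 members share exon bases with another gene. Of the 32 of them that were tested, 16 fell with D-2HG (median -0.66), and of the 45 that share none, 19 fell (median -0.61).

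Across the 9 libraries most members varied together, which is a description, since they share libraries and depth. Pearson's r between the log2 CPM of a member and the mean of the other members was highest for Mrpl18 (0.991), Mrpl20 (0.990), Mrpl15 (0.989) and Mrpl36 (0.982), all large-subunit proteins with bacterial counterparts. Of these, Mrpl20 was at 412, 246 and 346 CPM in controls, 232, 214 and 196 CPM with D-2HG and 231, 172 and 246 CPM with L-2HG. Its changes were -0.65 and -0.62 (edgeR adjusted p = 0.0339 and 0.0495), and these calls were lost in 6 and 7 of the 9 fits, in both cases without control replicate 1. The lowest r were those of Mrps35 (0.550) and Mrpl3 (0.216). Mrpl3, a core protein of the large subunit with a bacterial counterpart, was at 89.8, 131 and 205 CPM in controls, 146, 126 and 131 CPM with D-2HG and 99.4, 92.8 and 139 CPM with L-2HG. Here control replicate 1 was the lowest library of all, the ranges overlapped, and the estimates were -0.09 (95% interval -0.60 to 0.43) and -0.35 (95% interval -0.88 to 0.19). Mrpl50, named here after its values were seen, had the estimate nearest to 0 with D-2HG. It was at 117, 104 and 111 CPM in controls, 117, 116 and 97.5 CPM with D-2HG and 98.0, 101 and 105 CPM with L-2HG, with estimates of -0.01 (95% interval -0.39 to 0.37) and -0.13 (95% interval -0.53 to 0.26).

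The promoters of the family are shown because nuclear genes for mitochondrial proteins are known for sites of the transcription factors NRF1, GABP (an ETS-family factor) and YY1. RefSeq start sites on GRCm38.p6 gave 75 windows, each from 250 bases before to 50 bases after the start, for 69 of the 78 members. Capitals mark an exact match, on either strand, to GCGCANGCG (NRF1), CCGGAAG (ETS) or AAGATGGCG (YY1), where N is any base, and the motifs share no bases in the windows printed. Mrpl35 (chr6:71823735-71824034, minus strand) holds a YY1 match after its start. Mrpl27 (chr11:94653541-94653840, plus strand) holds 1 ETS match and Mrpl58 (chr11:115403502-115403801, plus strand) holds 2 of them. These 3 fell with both compounds, but the few windows printed cannot relate a motif to the change. Medians over members with and without each motif are given below, and the windows of Mrpl54 and Mrps28 are not printed. Mrpl45 (chr11:97315466-97315765, plus strand) is shown for its 3 NRF1 matches. Mrps12 (chr7:28741772-28742071, minus strand) is shown for its shared start region, described further on, and Mrpl50 (chr4:49521034-49521333, minus strand) as the member nearest to no change, with none of the motifs.
Mrpl35: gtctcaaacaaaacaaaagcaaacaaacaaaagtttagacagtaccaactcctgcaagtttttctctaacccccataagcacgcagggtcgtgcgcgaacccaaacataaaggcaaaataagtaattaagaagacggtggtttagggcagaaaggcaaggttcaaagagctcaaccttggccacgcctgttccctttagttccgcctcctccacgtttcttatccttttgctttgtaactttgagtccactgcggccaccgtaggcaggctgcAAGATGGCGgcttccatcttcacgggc
Mrpl27: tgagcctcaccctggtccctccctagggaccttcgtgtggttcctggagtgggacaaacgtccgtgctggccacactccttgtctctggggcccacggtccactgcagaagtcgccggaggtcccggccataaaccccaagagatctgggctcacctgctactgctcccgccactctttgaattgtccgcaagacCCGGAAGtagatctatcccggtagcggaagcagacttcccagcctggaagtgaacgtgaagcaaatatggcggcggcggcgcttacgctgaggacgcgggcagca
Mrpl58: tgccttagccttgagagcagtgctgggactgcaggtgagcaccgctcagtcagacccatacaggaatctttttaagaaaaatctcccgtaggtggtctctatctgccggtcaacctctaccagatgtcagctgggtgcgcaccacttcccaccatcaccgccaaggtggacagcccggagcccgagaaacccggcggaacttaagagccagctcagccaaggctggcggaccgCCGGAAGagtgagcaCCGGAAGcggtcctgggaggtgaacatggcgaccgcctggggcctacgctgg
Mrpl45: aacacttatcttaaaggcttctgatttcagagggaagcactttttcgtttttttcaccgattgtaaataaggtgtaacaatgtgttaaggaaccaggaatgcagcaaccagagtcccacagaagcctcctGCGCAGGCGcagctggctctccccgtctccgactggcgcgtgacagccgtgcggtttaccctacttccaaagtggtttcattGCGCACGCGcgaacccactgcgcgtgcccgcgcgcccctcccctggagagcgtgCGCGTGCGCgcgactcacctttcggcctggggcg
Mrps12: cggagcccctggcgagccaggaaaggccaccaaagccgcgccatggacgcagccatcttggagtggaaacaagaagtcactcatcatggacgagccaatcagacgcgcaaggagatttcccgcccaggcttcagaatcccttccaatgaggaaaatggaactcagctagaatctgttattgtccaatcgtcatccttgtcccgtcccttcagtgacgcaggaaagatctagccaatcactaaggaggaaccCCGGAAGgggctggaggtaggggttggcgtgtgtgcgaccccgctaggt
Mrpl50: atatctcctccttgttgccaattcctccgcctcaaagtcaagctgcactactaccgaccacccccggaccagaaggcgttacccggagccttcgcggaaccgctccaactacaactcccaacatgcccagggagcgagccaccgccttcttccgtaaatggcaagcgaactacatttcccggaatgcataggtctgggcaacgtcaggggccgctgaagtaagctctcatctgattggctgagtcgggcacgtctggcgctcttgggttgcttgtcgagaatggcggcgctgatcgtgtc

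An ETS match was found in 34.7% of the 75 member windows, compared with 11.8% of 20469 windows of all protein-coding genes and 20.3% of 9843 windows of tested genes. For NRF1 the shares were 21.3%, 8.87% and 15%, and for YY1 they were 10.7%, 1.90% and 3.64%. At least 1 of the 3 motifs was present in 56.0%, 20.1% and 34.1%. These are counts of letters, not of bound sites. The change with D-2HG had a median of -0.73 over the 25 tested members with an ETS match and of -0.61 over the 43 without, and with L-2HG of -0.63 and -0.59. For NRF1 the D-2HG medians were -0.59 over 16 members and -0.65 over 52, and for YY1 they were -0.67 over 8 and -0.63 over 60. Mrpl45, with 3 NRF1 matches, fell by 0.59 with D-2HG and by 0.61 with L-2HG on the log2 scale (edgeR adjusted p = 0.0395 and 0.0455). Its calls were kept in only 3 and 2 of the 9 fits that left out 1 library.

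Many members also begin next to another gene that is read the other way. A protein-coding gene on the opposite strand starts within 1000 bases of the start of 19 members, which is 24.4% of the family, compared with 7.22% of 21900 protein-coding genes. Those 21900 include genes with too few counts to be tested, and the share among tested genes alone is not given. The members of these pairs had a median of -0.66 with D-2HG and -0.69 with L-2HG, while their 17 tested partners had medians of -0.04 and 0.29. Of these partners 2 fell and 2 rose with D-2HG, 11.8% each, against 10.5% and 11.8% of all tested genes. With L-2HG 2 fell and 1 rose, 11.8% and 5.88% against 8.30% and 9.41%. These shares are near the background, and the single genes are given as such. Those that fell, with both compounds, were Ndufs6 and Sars2. Ndufs6 is a complex I subunit whose start region overlaps that of Mrpl36 (-0.99, edgeR adjusted p = 0.0181 with D-2HG). Sars2, the mitochondrial seryl-tRNA synthetase, starts 172 bases from Mrps12 (-0.83, edgeR adjusted p = 0.0157 with D-2HG). In the opposite direction, Eme2, an endonuclease subunit 29 bases from Mrps34, rose with D-2HG (1.33, edgeR adjusted p = 0.00395) and with L-2HG (0.96, edgeR adjusted p = 0.0306). Ppp1r10, a phosphatase regulatory subunit 45 bases from Mrps18b, rose with D-2HG (0.71, edgeR adjusted p = 0.0227), where Mrps18b fell.

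Among the other genes of mitochondrial translation the results were mixed, and these lists were read from the fit of all 9 libraries only. Of 5 ribosomal proteins with other names, Aurkaip1 and Chchd1, both of the small subunit, fell with D-2HG (-0.65 and -0.66, edgeR adjusted p = 0.0393 and 0.0436) and none passed with L-2HG. With D-2HG that is 40.0% of this short list, against 10.5% of all tested genes lower. In contrast to the family, Ptcd3, a small-subunit protein, had estimates above 0 (0.43 and 0.28, edgeR adjusted p = 0.102 and 0.29), with 128, 185 and 155 CPM in controls and 211, 223 and 194 CPM with D-2HG. Of 24 assembly factors, 7 fell and 1 rose with D-2HG (median -0.42), and 4 fell with L-2HG (median -0.36). The shares that fell were 29.2% and 16.7%, against 10.5% and 8.30% of all tested genes. The share that rose with D-2HG was 4.17%, against 11.8%. Mtg1, a GTPase of large-subunit assembly, fell with D-2HG (-1.0, edgeR adjusted p = 0.0163) and with L-2HG (-1.21, edgeR adjusted p = 0.0152). Mtg2, another such GTPase, was at 77.9, 55.7 and 64.2 CPM in controls and at 37.7, 17.8 and 25.2 CPM with L-2HG, without overlap (-1.20, edgeR adjusted p = 0.00976). Ddx28, an RNA helicase of the same process, fell with D-2HG (-0.96, edgeR adjusted p = 0.0146). Dhx30, also a helicase, was the assembly factor that rose with D-2HG (0.60, edgeR adjusted p = 0.0367).

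Translation factors and tRNA synthetases had smaller median changes than the family. Of 13 tested factors, 2 fell with D-2HG and 1 with L-2HG (medians -0.27 and -0.04). That is 15.4% and 7.69%, against 10.5% and 8.30% of all tested genes. Mrrf, which recycles ribosomes after termination, was at 66.8, 46.5 and 51.6 CPM in controls and at 27.2, 33.6 and 20.3 CPM with D-2HG (-1.01, edgeR adjusted p = 0.0161), without overlap, and it also fell with L-2HG (-0.84, edgeR adjusted p = 0.0458). Oxa1l, which inserts new proteins into the inner membrane, fell with D-2HG (-0.74, edgeR adjusted p = 0.033). Of 20 genes for charging mitochondrial tRNAs, 4 fell with D-2HG and 3 with L-2HG (medians -0.26 and -0.28). Of all tested genes, 10.5% and 8.30% fell, so these counts are only a few genes above the background. Rars2, the arginyl-tRNA synthetase, fell with both (-0.84 and -0.96, edgeR adjusted p = 0.0201 and 0.0201), and Qrsl1, a subunit of the glutamyl-tRNA amidotransferase, fell with L-2HG (-0.80, edgeR adjusted p = 0.04).

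Of 18 tested genes that make and process mitochondrial RNA, 2 fell and 3 rose with D-2HG (median -0.04), which is 11.1% and 16.7% against 10.5% and 11.8% of all tested genes. With L-2HG 1 fell and 1 rose (median -0.18), 5.56% each against 8.30% and 9.41%. These shares are near the background, and the single genes are given as such. Lrpprc, which stabilises mitochondrial messages in a complex with Slirp, was at 52.3, 127 and 48.7 CPM in controls and at 248, 240 and 282 CPM with D-2HG, a change of 1.78 (edgeR adjusted p = 0.00902). Its partner Slirp went the other way, from 53.3, 36.3 and 48.5 CPM to 32.7, 22.8 and 23.5 CPM (-0.82, edgeR adjusted p = 0.0244). Neither pair of ranges overlapped, and control replicate 2 was again the control nearest to the treated libraries in both. Hsd17b10, a subunit of mitochondrial RNase P, fell with D-2HG (-0.66, edgeR adjusted p = 0.0384) and Polrmt, the mitochondrial RNA polymerase, rose (0.70, edgeR adjusted p = 0.04). With L-2HG, Tefm, an elongation factor of that polymerase, fell (-0.85, edgeR adjusted p = 0.046) and Fastkd5, an RNA-processing protein, rose (0.93, edgeR adjusted p = 0.0419).

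Regulators of nuclear genes for mitochondrial proteins had estimates mostly above 0. Of 9 tested, 1 and 2 were below 0 with D-2HG and L-2HG, against 48.3% and 47.6% of all tested genes, and the medians were 0.34 and 0.31. Pprc1, a coactivator of the PGC-1 family, rose with D-2HG (0.77, edgeR adjusted p = 0.0381). Nrf1 had estimates of 0.30 and 0.29 (edgeR adjusted p = 0.248 and 0.297), Gabpa of 0.66 and 0.26 (edgeR adjusted p = 0.0671 and 0.498) and Myc of -0.11 and -0.33 (edgeR adjusted p = 0.725 and 0.282). Messages encoded in mitochondria were lower: of 11 tested, 7 fell with D-2HG (median -1.07) and 5 with L-2HG (median -0.82). That is 63.6% and 45.5%, against 10.5% and 8.30% of all tested genes. mt-Nd2, a complex I subunit, was at 974, 556 and 677 CPM in controls and at 320, 345 and 223 CPM with D-2HG (-1.31, edgeR adjusted p = 0.00312). mt-Nd4, also of complex I, fell with D-2HG (-1.12, edgeR adjusted p = 0.00356) and with L-2HG (-1.31, edgeR adjusted p = 0.00283), and mt-Cytb, of complex III, fell with L-2HG (-1.80, edgeR adjusted p = 0.0152).

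Lower levels were also found in other large families of nuclear genes. Of 80 tested cytosolic ribosomal protein genes, 14 fell with D-2HG and 13 with L-2HG, and the medians were -0.48 and -0.51. That is 17.5% and 16.25%, against 10.5% and 8.30% of all tested genes. Of 75 nuclear genes for respiratory chain and ATP synthase subunits, 46 fell with D-2HG and 25 with L-2HG (61.3% and 33.3%), and the medians were -0.71 and -0.64. In these lists control replicate 2 differed from the mean of controls 1 and 3 by a median of -0.62 and -0.62, close to the -0.63 of the mitochondrial ribosomal proteins. That difference was -0.28 for assembly factors, -0.33 for translation factors, -0.11 for tRNA synthetases, 0.04 for RNA synthesis and maturation, 0.20 for regulators and -0.48 for messages encoded in mitochondria. Members have a median exon length of 2533 bases when tested, compared with 4449 bases for all tested genes. Across all tested genes, which are not independent replicates, Spearman's rho between exon length and the change was 0.47 with D-2HG and 0.46 with L-2HG, and across the 77 members it was 0.16 and 0.08.

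**Figure D5:**
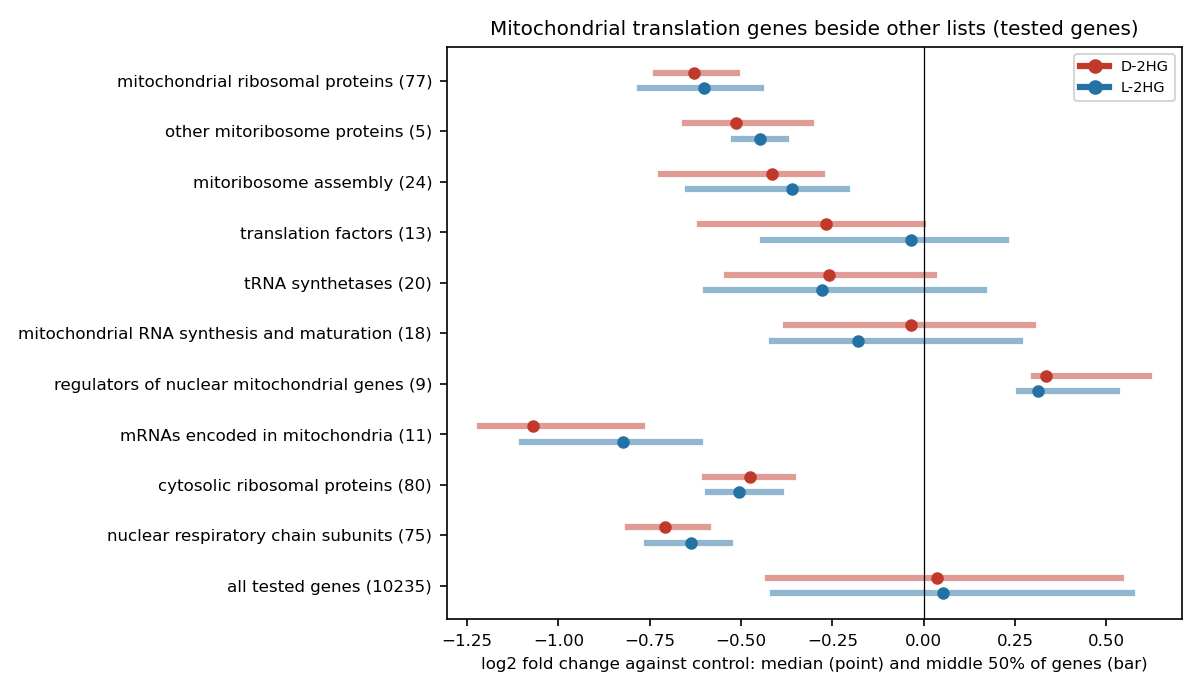
Median (point) and middle 50% of genes (bar) of the log2 fold change against control with D-2HG and L-2HG for the mitochondrial ribosomal proteins, the lists of mitochondrial translation and of related genes, and all tested genes, with the number tested in brackets. The family lies at -0.63 and -0.60, between the cytosolic ribosomal proteins (-0.48 and -0.51) and the respiratory chain subunits (-0.71 and -0.64), and all tested genes lie at 0.04 and 0.05.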

How the data were processed

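RNA was captured on beads, primed with oligo(dT), amplified and fragmented by a transposase, per the labels' protocols. Reads were aligned to mm10 with STAR 2.7.3a and counted with featureCounts, per the submitters' processing notes; settings and annotation release are not given in the sources used here. The authors deposited whole-number counts for each gene and library. A deposited table of signal values, the counts over a size factor for each library (recomputed counts lay within 6.56e-05 of whole numbers), gave only gene IDs and biotypes. Positions and exon lengths came from GENCODE M21, where 291 of 55011 symbols had none.

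The tests used edgeR 4.0.16 (R 4.3.3), with DESeq2 1.42.0 and limma 3.58.1 as alternatives. Genes passed filterByExpr (minimum count 10), libraries were scaled by TMM, and 1 robust quasi-likelihood model with 1 mean per group (6 residual degrees of freedom) was fitted to 10235 genes. Adjusted p is Benjamini-Hochberg over all of them, with a threshold of 0.05. Log2 CPM used a prior count of 2, and 95% intervals are per gene, unadjusted. Replicates of a group differed beyond counting error (chi-square per degree of freedom 6.07 to 42.3).

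Named members are the 6 lowest adjusted p per comparison with control, fixed members (the S18 paralogues, Mrps36, Mrpl12, Mrpl58 and Mrps12), the 3 highest and 3 lowest levels per length, and the 4 most and 2 least like the family. Mrpl50, Mrpl45, Mrpl34 and Mrps31 were added after values were seen. From other lists at most 2 genes per direction are named, besides regulators, Ptcd3, marker genes and genes that share a start or exons with a member. The members and lists were chosen with earlier results of these data known. One marker gene is not reported here.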

Additional observations from a re-analysis of the deposited data

How the results depend on the processing

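The median of the family was below 0 against control in every alternative run, no named member that was called changed sign, and 0 members passed between D-2HG and L-2HG under any of them (0 to 3 at an unadjusted p under 0.05). The number of members past the threshold, 35 with D-2HG and 26 with L-2HG, did not hold. Values are given for D-2HG and then for L-2HG, and the cause of each shift was not tested. limma-voom with quality weights gave 70 and 66, and DESeq2 48 and 35. Scaling by library totals without TMM gave 14 and 11. Thinning all libraries to the smallest gave 10 and 10. Subtracting a genomic DNA background estimated from 1690 sensory receptor genes gave 19 and 8, although that background amounted to at most 2.0% of the members' counts in any library. The log2 satellite share as a covariate gave 0 and 0 (8 and 5 at an unadjusted p under 0.05), with medians of -0.25 and -0.17 on the log2 scale and estimates below 0 in 68 and 59 members. Leaving out the library with the highest satellite share in each group, chosen after seeing the data, gave 67 and 69. For L-2HG alone, no filter on counts gave 43, a mean count of at least 50 gave 14 and a fit of the compared groups only gave 6. Leaving out each library in turn gave 2 to 68 members with D-2HG and 0 to 67 with L-2HG, with medians of -0.83 to -0.48 and -0.78 to -0.46. A replicate block gave 34 and 33 members. Deviations of libraries with the same replicate number correlated at -0.17 to 0.28, and those with different numbers at -0.30 to 0.28. These values do not settle whether the numbers pair the libraries, which the labels do not say. L-2HG replicate 2 had the lowest depth, with 2405 counts over the members.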
